A study of Mus musculus with 4 samples.

Results

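Connexins are the membrane proteins of gap junctions. They assemble into hemichannels, and hemichannels of neighbouring cells dock into channels that pass ions, second messengers and small metabolites. In the inner ear the supporting cells and the cells around them are coupled by such channels, which are thought to carry potassium away from hair cells (HCs) and to spread inositol trisphosphate (IP3) and calcium signals, and *Gjb2* and *Gjb6* are well-known genes of inherited deafness. Of 5 listed connexin genes (*Gjb2*, *Gjb6*, *Gja1*, *Gjb5* and *Gjc1*), 4 were found by symbol among the 12814 genes of the table, and *Gjb5* was not analysed here.

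RNA was sequenced from cells sorted from the cochlea and the vestibular system of postnatal day 1 mice on a C57BL/6 background. All mice carried *Atoh1/nGFP*, a transgene that places a nuclear green fluorescent protein in HCs, and no other treatment or genotype was compared. HCs were sorted as cells with both the fluorescent protein and the epithelial surface protein CD326, and epithelial non-sensory cells (ENSCs) as cells with CD326 alone, so that ENSCs hold supporting cells together with other epithelial cells of the organ. Inner ears of several mice were pooled for each sorted sample. Each of the 4 populations (cochlear HCs, cochlear ENSCs, vestibular HCs and vestibular ENSCs) had 1 column in the table, called a library here, so no difference below has a replicate error, no test was possible and no p-value is given. The study describes replicate samples, and whether a column is 1 of them or combines several is not given in the sources used here.

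Values are quantile-normalized signals per gene with a floor of 20, and signals are called 3-fold apart where the higher is at least 3 times the lower. The columns have the same total and the same sorted values by construction and give no sequencing depth. The lowest signals of 3 libraries were tied, up to 24.25 (cochlear HCs), 22.75 (cochlear ENSCs) and 30.5 (vestibular HCs). A fold that rests on a tied or floor signal is a lower bound, computed from the upper end of that range, and is written with "at least". No listed connexin had a signal in a tied range in any library. The known HC genes, among them *Pou4f3*, *Atoh1* and *Myo7a*, were at least 3-fold higher in HCs of both organs in 10 of 10 cases. The folds ran from at least 3.48 (*Lhx3*) to 48.4 (*Myo7a*) for the cochlea and from at least 5.38 (*Lhx3*) to 188 (*Otof*) for the vestibular organs.

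The connexins were ordered first by their level per kilobase of exon, because the deposited signal is not divided by gene length. *Gjb2*, a beta connexin of the epithelial gap junctions, stood at 1698 per kilobase in cochlear HCs and 1964 in cochlear ENSCs, above 99.4% and 99.3% of the 11818 protein-coding genes with a known length in the same library. In vestibular HCs it stood at 137 per kilobase and in vestibular ENSCs at 159. *Gjb6*, its beta connexin partner, followed in the cochlea with 384 per kilobase in HCs and 275 in ENSCs. *Gja1*, the most widely expressed alpha connexin, had 39.1 per kilobase in cochlear HCs and 225 in cochlear ENSCs. *Gjc1*, a gamma connexin known from smooth muscle and early development, was the lowest of the 4 in the cochlea, at 10.9 and 81.8 per kilobase. The cochlear order was therefore *Gjb2*, *Gjb6*, *Gja1*, *Gjc1* in both populations. In vestibular HCs *Gjb6* (215 per kilobase) came before *Gjb2*, and in vestibular ENSCs *Gjc1* (39.0) and *Gja1* (37.1) were nearly level behind *Gjb2* and *Gjb6* (86.6). The length of the longest transcript in place of all exons gave the same order in each library.

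**Figure D1:**
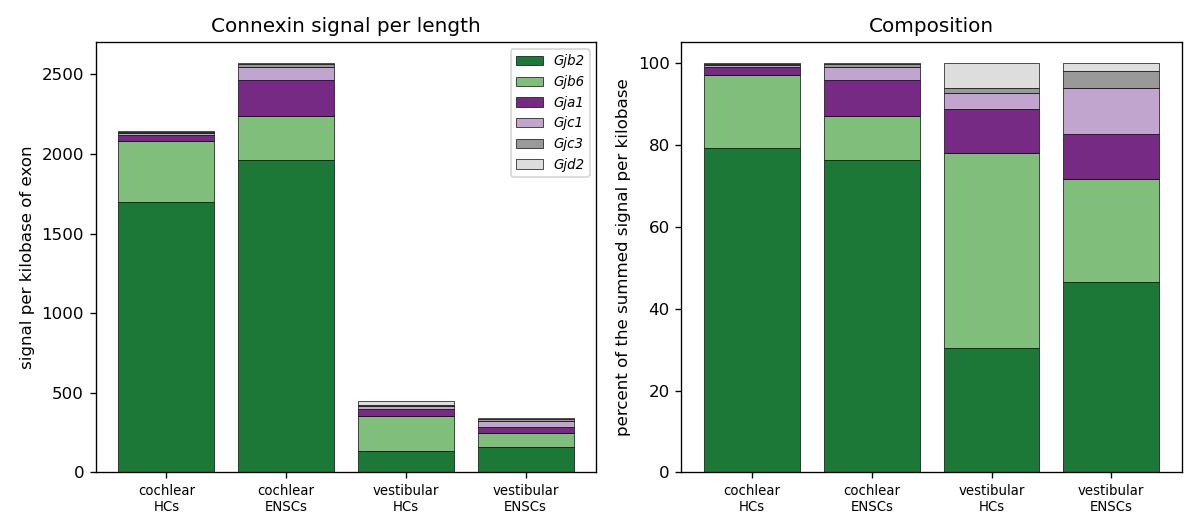
Stacked bars of the signal per kilobase of exon (left) and of each gene's percent of the summed signal per kilobase (right) for the 6 connexins of the table in the 4 libraries, 1 library per bar and no error. *Gjb2* makes up 79.2% and 76.4% of the cochlear bars and 30.3% and 46.4% of the vestibular ones, HCs first.

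Summed over the 6 connexins of the table (the 4 above with *Gjc3* and *Gjd2*), the level was 2144 per kilobase in cochlear HCs and 2572 in cochlear ENSCs, against 452 and 342 in vestibular HCs and ENSCs. Beta connexins led in every library. *Gjb2* was 4.42 times *Gjb6* per kilobase in cochlear HCs and 7.14 times in cochlear ENSCs. This ratio was 1.83 in vestibular ENSCs and 0.636 in vestibular HCs, the one library in which *Gjb6* was the larger. *Gja1* contributed 8.76% of the connexin signal in cochlear ENSCs and 1.83% in cochlear HCs, and 10.8% in each vestibular library.

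*Gjb2* (ENSMUSG00000046352, chromosome 14, 57717437 to 57723539 on the minus strand of the mm9 mouse genome, 2 exons with the coding sequence in 1) had a signal of 4084 in cochlear HCs, 4725.5 in cochlear ENSCs, 329.25 in vestibular HCs and 382.25 in vestibular ENSCs. Both cochlear signals were far above both vestibular ones. Within an organ the signals were close, with ENSCs 1.16-fold above HCs in both organs (log2 ratios of HCs to ENSCs -0.21 and -0.22). Between organs the cochlear signal was 12.4-fold higher in HCs and 12.4-fold higher in ENSCs (log2 ratios 3.63 and 3.63). With the within-organ ratios so alike, the last value follows from the others and is not separate evidence.

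*Gjb6* (ENSMUSG00000040055, chromosome 14, 57742140 to 57752448, minus strand) lies 18.6 kb from *Gjb2*. Its signal was 870.75 in cochlear HCs, 624.25 in cochlear ENSCs, 488.5 in vestibular HCs and 196.5 in vestibular ENSCs. Here the HC signal was the higher one in both organs, 1.39-fold for the cochlea and 2.49-fold for the vestibular organs (log2 ratios 0.48 and 1.31), each under 3-fold. Cochlear ENSCs exceeded vestibular ENSCs 3.18-fold (log2 ratio 1.67), just past the threshold, and this fell under it once 20 was added to every signal (1.57). Between the HC libraries the cochlear signal was 1.78-fold higher.

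*Gja1* (ENSMUSG00000050953, chromosome 10, 56097106 to 56110225, plus strand) had 121.5 in cochlear HCs, 699.5 in cochlear ENSCs, 150.75 in vestibular HCs and 115.25 in vestibular ENSCs. Cochlear ENSCs stood apart, and the other 3 libraries lay within a narrow range. HCs had 5.76-fold less than ENSCs in the cochlea (log2 ratio -2.53) and 1.31-fold more in the vestibular organs (0.39). Once trends of the ratios with exon length and GC content were removed, the cochlear ratio was -2.48 and the vestibular one 0.07. The vestibular minus cochlear difference of the log2 ratios was 2.91, with no test. Cochlear ENSCs exceeded vestibular ENSCs 6.07-fold, whereas cochlear HCs were 1.24-fold below vestibular HCs.

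*Gjc1* (ENSMUSG00000034520, chromosome 11, 102660893 to 102681014, minus strand) had 54.75 in cochlear HCs, 409.25 in cochlear ENSCs, 87.5 in vestibular HCs and 195.25 in vestibular ENSCs. ENSCs were the higher library in both organs, 7.47-fold for the cochlea and 2.23-fold for the vestibular organs (log2 ratios -2.90 and -1.16). Cochlear ENSCs exceeded vestibular ENSCs 2.10-fold, and cochlear HCs were 1.60-fold below vestibular HCs. With 100 added to every signal the cochlear HC to ENSC ratio was -1.72, still past 3-fold.

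**Figure D2:**
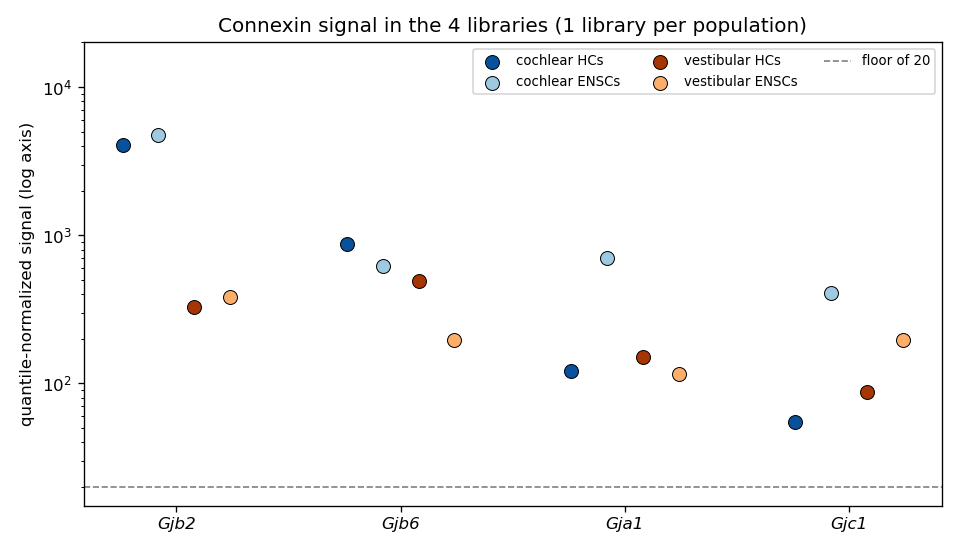
Quantile-normalized signal (log axis) of each connexin in the 4 libraries, 1 point per library, with the floor of 20 as a dashed line and no error. *Gjb2* splits by organ (4084 and 4725.5 against 329.25 and 382.25), *Gja1* and *Gjc1* are highest in cochlear ENSCs (699.5 and 409.25), and *Gjb6* is highest in cochlear HCs (870.75).

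Against all genes, 2 of the 4 connexins, *Gja1* and *Gjc1*, were at least 3-fold lower in cochlear HCs than in cochlear ENSCs, as were 9.20% of all genes, and 0 were at least 3-fold higher (8.39% of all genes). Between the vestibular populations 0 of 4 were 3-fold apart, where 28.1% of all genes were (13.8% higher in HCs and 14.3% lower). Across the HC libraries 9.30% of all genes were 3-fold apart. Here 1 of the 4, *Gjb2*, was past 3-fold with the higher signal in the cochlea, as were 4.21% of all genes, and 0 were past it the other way (5.09%). Across the ENSC libraries 15.7% of all genes were 3-fold apart. *Gjb2*, *Gja1* and *Gjb6*, 3 of the 4, were past 3-fold with the higher signal in the cochlea (7.80% of all genes) and 0 the other way (7.94%), and all 4 had the higher signal in cochlear ENSCs. HC to ENSC ratios had opposite signs in the organs for 1 of the 4 (*Gja1*), as for 27.0% of all genes, and were at least 3-fold apart between the organs for 2 of the 4 (*Gja1* and *Gjc1*), as for 21.4% of all genes. The *Gjc1* difference (1.74) went under 3-fold with 20 added to every signal (1.52), with 100 added (1.06) and with a floor of 100 (1.07). The median log2 ratio of the 4 was -1.37 in the cochlea (HCs to ENSCs), 0.09 in the vestibular system, 0.26 between the HC libraries and 2.13 between the ENSC libraries, and over all genes the medians were 0, -0.0045, 0 and 0. These comparisons share libraries, and cochlear ENSCs, the library with the highest signal for 3 of the 4 genes, enter 2 of them.

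**Figure D3:**
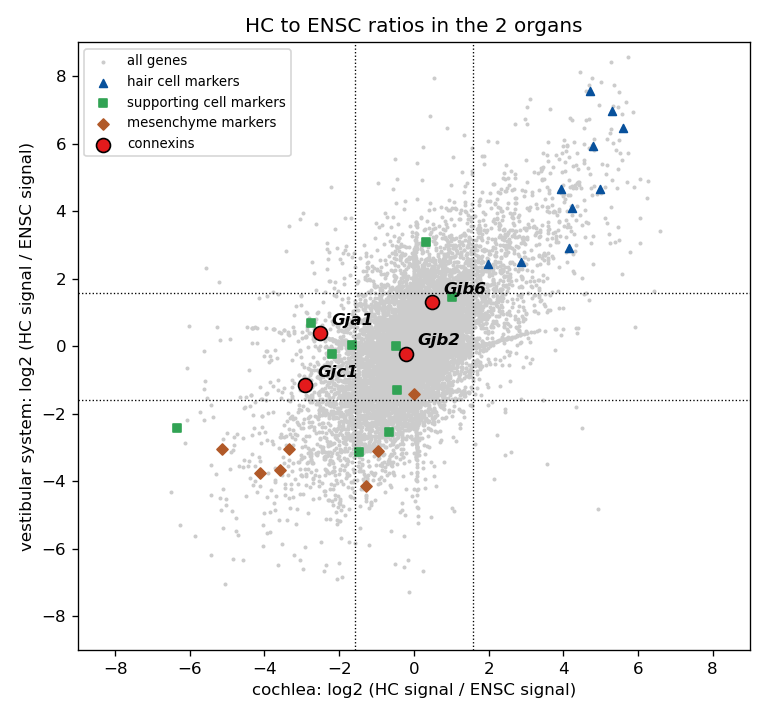
Log2 ratio of HC to ENSC signal in the cochlea (x axis) and in the vestibular system (y axis) for all genes (grey), 3 marker lists and the 4 connexins (red), 1 library per population, with dotted lines at 3-fold. *Gja1* (-2.53, 0.39) and *Gjc1* (-2.90, -1.16) lie past 3-fold on the x axis alone, *Gjb2* (-0.21, -0.22) and *Gjb6* (0.48, 1.31) inside both thresholds, and the HC markers in the upper right.

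Signals of other cell types were read beside the connexins. In the cochlea the HC signal was 86.4% of the ENSC signal for *Gjb2*, 139% for *Gjb6*, 17.4% for *Gja1* and 13.4% for *Gjc1*. Of the 10 listed supporting cell genes, the HC signal ranged from 1.23% of the ENSC signal for *Epyc*, a proteoglycan with 62028.5 in cochlear ENSCs and 763.75 in cochlear HCs, to 201% for *Lfng*, a Notch-modifying enzyme. The transcription factor *Sox2*, which supporting cells and immature HCs both make, stood at 126%. The same shares for the vestibular organs were 86.1%, 249%, 131% and 44.8% for the connexins in the same order, and 11.5% (*Tecta*) to 850% (*Sox2*) for the supporting cell genes. *Epcam*, which encodes CD326, was at 30.1% (cochlea) and 15.2% (vestibular organs). In bulk samples, fewer cells of a type and less RNA per cell cannot be told apart.

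Genes of mesenchyme, whose cells lack CD326, had their highest sum in the same library as *Gja1* and *Gjc1*, as did the supporting cell list (98992.5 in cochlear ENSCs and at most 23518.5 elsewhere). *Epyc* alone made up 62028.5 of that supporting cell sum. In the same list *Otog* was highest in vestibular ENSCs (10905, against 1432.75 in cochlear ENSCs). *Sox2* and *Lfng* were highest in vestibular HCs, and the remaining supporting cell genes in cochlear ENSCs. The 7 mesenchyme genes analysed, of 9 listed, summed to 21364.5 in cochlear ENSCs, 5226.75 in vestibular ENSCs, 1448.25 in cochlear HCs and 463 for the vestibular HC library. *Lum* (12731), *Vim* (5062.5), *Dcn* (1828) and *Col1a2* (1618) made up most of the cochlear ENSC sum. Of the 7, *Lum* (30.8-fold), *Dcn* (7.30-fold), *Col1a2* (3.65-fold) and *Vim* (1.68-fold) were higher in cochlear than in vestibular ENSCs. *Col1a1* (58.25 and 512.25) and *Col3a1* (46.25 and 547) were lower, *Tbx18* was at the floor in cochlear ENSCs and at 54.75 in vestibular ENSCs, and *Pou3f4* and *Twist1* were not analysed here. The glial list (5 of 5) summed to 873 in cochlear ENSCs, between 512.25 (vestibular HCs) and 1989 (vestibular ENSCs) in the other libraries. Of the endothelial list 1 of 6 was analysed, *Kdr*, at 29 in cochlear ENSCs and 1462 in vestibular ENSCs. *Rgs5* of pericytes and smooth muscle (1 of 5) was at most 93.5, *Mitf* of melanocytes (1 of 5) was at 244.25 and 247.5 in cochlear and vestibular ENSCs, the keratinocyte genes (2 of 6) were at most 54, and 0 of the 6 blood genes were analysed. Marginal and dark cell genes (6 of 6) summed to 18231 in cochlear ENSCs and 15235 in vestibular ENSCs, of which *Slc12a2* alone made up 15030.5 and 8051. The other 5 were each lower in cochlear ENSCs, and the list medians were 106 and 953. The part of these cells in the connexin signals was not tested.

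*Gjb2* and *Gjb6* are neighbours, so their start regions and surroundings were set side by side. The only protein-coding gene of the table between them, *Gm4491*, had 46.75 in cochlear HCs, 66 in cochlear ENSCs, and 20.5 and 20 in the vestibular libraries, HCs first. *Zmym2*, 138 kb beyond *Gjb2*, had signals from 1507 to 2006 with log2 ratios of -0.04 and -0.10 between organs in HCs and ENSCs, and *Cryl1*, 141 kb beyond *Gjb6*, had at most 49.25. *Gm4491*, 7.80 kb from *Gjb2*, thus had its higher signals in the cochlea as *Gjb2* did, with both vestibular signals tied or at the floor, and *Zmym2* had similar signals in the organs. The nearest genes of the table to *Gja1* were *D630037F22Rik*, 149 kb away (216.5 to 803.75, highest in vestibular HCs) and *Hsf2*, 1096 kb away (208.75 to 1004, likewise). Those nearest to *Gjc1* were *Adam11* at 19.3 kb (20 to 95, likewise) and *Eftud2* at 18.8 kb (178 to 334.25, highest in cochlear HCs). The coding sequences of *Gjb2* and *Gjb6* were identical at 75.8% of 681 aligned bases, against 58.3% to 64.0% for the other 5 pairs of the 4 connexins.

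The 250 bases before the start of each gene are shown because these neighbours differ in the size of their organ difference. Both are from the RefSeq promoter table (GRCm38.p6) and matched the mm9 genome exactly once, directly before the annotated start, at chr14:57723540-57723789 for *Gjb2* and chr14:57752449-57752698 for *Gjb6*, both on the minus strand. They run 5′ to 3′, and capitals mark the GC box GGGCGG or its reverse complement CCGCCC.
Gjb2: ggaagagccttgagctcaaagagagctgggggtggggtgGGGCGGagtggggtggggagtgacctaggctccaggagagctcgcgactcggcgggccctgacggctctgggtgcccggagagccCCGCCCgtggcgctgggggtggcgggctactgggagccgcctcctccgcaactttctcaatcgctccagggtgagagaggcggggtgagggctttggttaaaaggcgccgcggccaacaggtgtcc
Gjb6: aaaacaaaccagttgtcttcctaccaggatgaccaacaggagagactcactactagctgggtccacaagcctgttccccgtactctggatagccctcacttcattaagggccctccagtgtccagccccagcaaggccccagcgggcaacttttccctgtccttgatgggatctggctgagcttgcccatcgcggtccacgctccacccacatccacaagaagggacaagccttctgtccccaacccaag
*Gjb2* held the GC box 211 bases before the start and, on the other strand, 126 bases before it, and *Gjb6* held none. At least 1 GC box on either strand stood in 32.7% of the 32851 windows of the same length. CCAAT (33.8% of windows) and TATAAA (12.4%), searched on both strands, were in neither. The GC content was 69.2% for *Gjb2* and 56.8% for *Gjb6*, with a median of 52.4% over all windows, and the CG dinucleotide occurred 18 and 5 times. These letters are a description of the windows and were not tied to the signals.

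Genes with the pattern most like each connexin were sought among 6727 protein-coding genes by the Euclidean distance of log2 signals centred over the 4 libraries. Nearest to *Gjb2* was *Ano1*, a calcium-activated chloride channel, at a distance of 0.61, with 904.75 in cochlear HCs, 1015.5 in cochlear ENSCs, 101.75 in vestibular HCs and 65.25 in vestibular ENSCs. It was followed by the nuclear receptor gene *Nr2f1* (0.61) and by *Ccdc8* (0.70). In all 3 of these the cochlear signals were the higher ones, and vestibular HCs exceeded vestibular ENSCs, unlike in *Gjb2*. *Gjb6* lay nearest to *Sltm* (0.16), *Pdap1* (0.16) and *Orc2* (0.17). *Gja1* was nearest to *Ltbr*, a tumour necrosis factor family receptor, at 0.07, and then to *Ap1s2* (0.30) and *Cmpk2* (0.31). *Gjc1* was nearest to the transcription factor gene *Zfp521* (0.26), the membrane glycoprotein gene *Gpm6b* (0.31) and *Ap1s3* (0.34). Among the connexins themselves the closest pair was *Gja1* and *Gjc1* (1.47), while *Gjb2* and *Gjb6* were 2.66 apart. With 4 libraries these distances are descriptions and carry no test.

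**Figure D4:**
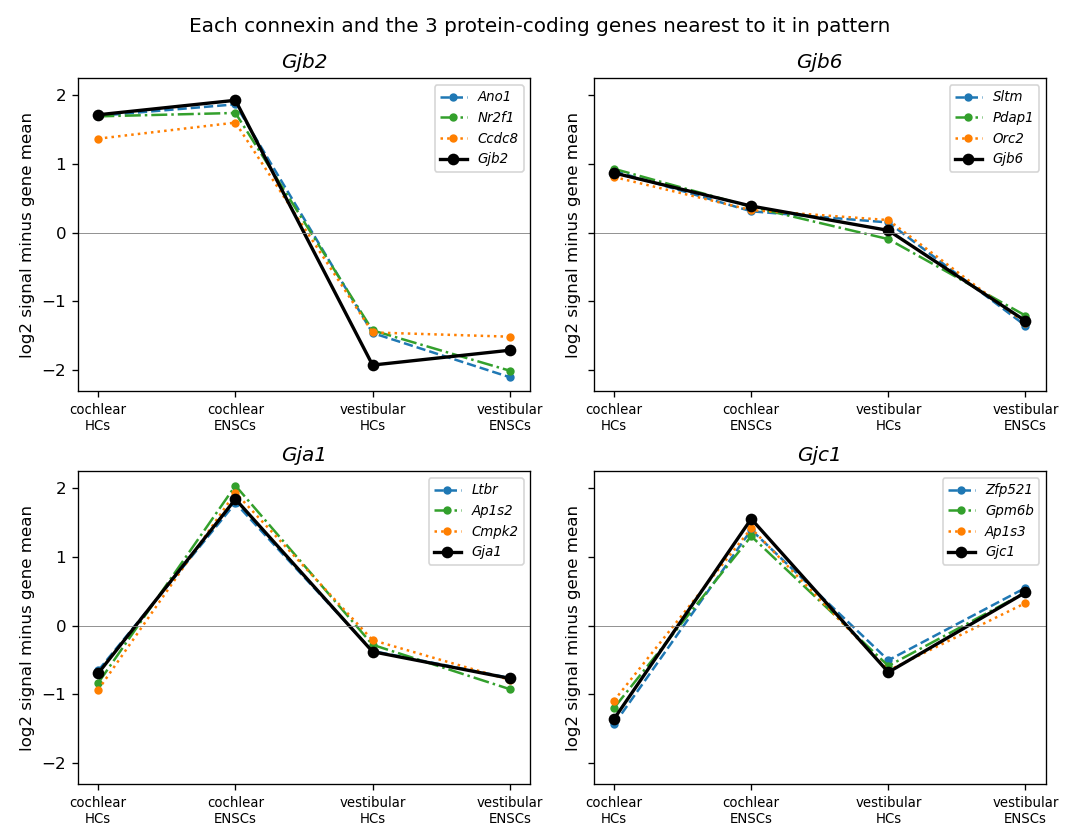
Log2 signal minus the gene's mean over the 4 libraries (y axis) for each connexin (black) and its 3 nearest protein-coding genes (coloured), with 1 library per point and no error. *Gjb2* and *Ano1* (distance 0.61) drop from the cochlear to the vestibular libraries, and *Gja1* and *Ltbr* (0.07) peak in cochlear ENSCs.

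The table held 2 further connexins and 2 pannexins. *Gjc3*, a connexin of glia, had 66 in cochlear ENSCs and 48.5 in vestibular ENSCs and was inside the tied range in both HC libraries, at least 2.72-fold and 1.59-fold lower there. *Gjd2*, the main neuronal connexin, had 79.25 in vestibular HCs and was at the floor in the other libraries, at least 3.96-fold above vestibular ENSCs and at least 3.27-fold above cochlear HCs. *Panx1*, a pannexin, whose family forms channels in single membranes, was higher in HCs, with 87 and 25.5 in cochlear HCs and ENSCs and 179 and 42.5 in the vestibular ones (log2 ratios 1.77 and 2.07). Per kilobase, *Panx1* (59.7) exceeded *Gja1* and *Gjc1* in vestibular HCs, and *Gjd2* (27.5) exceeded *Gjc1* there. *Panx3* was at most 28.25. In all, 6 of the 20 annotated connexin genes and 2 of 3 pannexin genes were analysed.

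Genes that anchor, sort or degrade connexins were looked at as a list of 17. In the cochlea 1 was at least 3-fold higher in HCs (N-cadherin, *Cdh2*, 1538 and 510, log2 ratio 1.59) and 1 lower (*Cav2*, at least 19.7-fold). The *Cdh2* ratio, 3.02-fold, was only just past the threshold. Between the vestibular populations 0 of 17 were at least 3-fold higher in HCs and 5 at least 3-fold lower, among them E-cadherin (*Cdh1*, 178.5 in HCs and 3308 in ENSCs, -4.21), the caveolin genes *Cav1* and *Cav2* (at least 9.73-fold and 8.82-fold) and *Src*, whose bound was under 3-fold (2.39). Among all genes, 8.39% were higher and 9.20% lower in cochlear HCs, and 13.8% higher and 14.3% lower in vestibular HCs. *Tjp1*, the scaffold that binds *Gja1* protein, differed little, with signals from 2251 to 2926.5. *Cdh1* had 6003 in cochlear HCs, 33.6-fold above vestibular HCs. The list medians were -0.11 and -0.85.

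Connexin hemichannels release ATP, and of 23 genes of ATP and IP3 signalling 16 were analysed. In the cochlea 2 of 16 were at least 3-fold higher in HCs (8.39% of all genes), the ATP-gated channel gene *P2rx3* (at least 9.38-fold) and the IP3 receptor gene *Itpr3* (at least 6.49-fold). In the same comparison 3 of 16 were lower (9.20% of all genes), the ATP receptor gene *P2ry1* (46 and 141, log2 ratio -1.62), *Itpr1* (80.75 and 484.5, -2.58) and the adenosine receptor gene *Adora1* (at least 4.33-fold). The *P2ry1* ratio, 3.07-fold, was only just past the threshold. For the vestibular organs, 1 of 16 was higher (*P2rx3*, at least 10.4-fold, against 13.8% of all genes) and 3 of 16 lower (14.3% of all genes), *Itpr1* (230 and 1707, -2.89), *P2ry2* and *Entpd3*, the last 2 with bounds under 3-fold (2.61 and 2.66). *P2rx3* had almost the same signal in both HC libraries (213.5 and 207.25). The list medians were -0.27 and -0.23.

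Of 14 genes of potassium handling 13 were analysed, and 0 were 3-fold higher in HCs of either organ (8.39% and 13.8% of all genes, cochlea first). In the cochlea 3 of 13 were at least 3-fold lower in HCs (9.20% of all genes), the cotransporter gene *Slc12a2* (4701 and 15030.5, log2 ratio -1.68), the channel subunit gene *Kcne1* (at least 5.74-fold) and the anion exchanger gene *Slc26a4* (at least 11.6-fold). For the vestibular organs, 8 of 13 were lower (14.3% of all genes), among them *Atp1b2* (326 and 3806, -3.55), *Slc12a7* (59.25 and 200.75, -1.76), *Slc26a4* (35.25 and 225.75, -2.68), *Kcne1* (29.5, a tied signal, and 670.5), *Kcnq1* (at least 4.65-fold) and *Bsnd* (at least 3.40-fold). Of the 13, *Slc12a2*, *Kcnq1*, *Kcne1* and *Bsnd* are also on the marginal and dark cell list, of which 5 of 6 were at least 3-fold lower in vestibular HCs. Over the 46 genes of the 3 pathway lists, 17 were 3-fold apart between the vestibular populations (28.1% of all genes), and 9 after removal of length and GC trends (3173 of all 12814 genes). *Kcnj10*, the inward rectifier of supporting cells, had 176.75 and 161.75 in cochlear HCs and ENSCs and 139.5 and 307.25 in the vestibular ones. The list medians were -0.59 and -1.76.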

How the data were processed

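Each sample was assigned by its source name, and a column named for non-HCs was taken as the ENSC sample of that organ. For the deposited signal, the authors mapped reads trimmed to 50 nt with TopHat (mm9), tallied them over ENSEMBL genes in HTSeq, applied quantile normalization across the 4 libraries and raised low values to 20. These are therefore not counts. The methods name the floor after the normalization, but the tied signals above 20 leave the order of these steps uncertain. Versions, annotation release and strandedness are not given in the sources used here, and cDNA was amplified before library construction. Quantile normalization removes overall differences between libraries. True depth is unknown, and no counting interval is given.

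Log2 ratios of the deposited signals were computed with no pseudocount over all 12814 genes (Python 3.11.15, pandas 2.3.3), after a check on simulated data. Positions, exon lengths and GC content came from GENCODE for the mm9 assembly, in which 12799 identifiers were found. The exons of *Gjb2*, *Gjb6* and *Gja1* shared no stretch of at least 50 nt at 96% identity with another place in mm9 (blastn 2.17.0), and *Gjc1* did over 68 of 5003 exonic bases. No annotated gene overlapped them. Ratios were recomputed with floors of 50 and 100, tied values raised to the upper end of their range, 20 or 100 added to every signal, centring on the median, and removal of length and GC trends (lowess in statsmodels 0.14.6). Coding sequences were aligned globally with Biopython 1.88 (match 1, mismatch -1, gap opening -5, gap extension -1).

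The listed connexins and the gene lists were chosen with earlier results of these data known. Named were the connexins, other connexins and pannexins, members of 3 pathway lists 3-fold apart in either organ, the 3 genes nearest in pattern (highest signal at least 200), the nearest protein-coding genes on each side and marker genes. *Tjp1* and *Kcnj10* were named outside that rule, after their values were seen. Some genes of the pathway lists that passed 3-fold are counted but not reported here by name.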

Additional observations from a re-analysis of the deposited data

Results flagged for a closer look

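*Gja1* had HC to ENSC ratios of opposite sign in the organs, 1 of the 4 connexins, a share near that over all genes. Its log2 ratio was -2.53 for the cochlea and 0.39 for the vestibular organs, a vestibular minus cochlear difference of 2.91. The difference was not tested, since each population had 1 library. Opposite signs were seen in 27.0% of all genes, and 21.4% of all genes had ratios at least 3-fold apart between the organs. Adding 100 to every signal gave 2.07, the lowest of the 7 alternatives run, and the signs stayed opposite in all 7, with a vestibular ratio of 0.07 after correction for length and GC content. The sums of the supporting cell list (98992.5), the mesenchyme list (21364.5) and the marginal and dark cell list (18231) were also highest in cochlear ENSCs. *Epyc* alone made up 62028.5 of the supporting cell sum, and *Slc12a2* alone 15030.5 of the marginal and dark cell sum. *Kcnq1*, *Kcne1*, *Esrrb*, *Bsnd* and *Lrp2* of the latter list were each lower in cochlear than in vestibular ENSCs. Of the supporting cell genes, *Tectb* (-2.74 and 0.69) and *Sparcl1* (-1.64 and 0.03) also had ratios of opposite sign. *Tecta*, *Otog*, *Otogl*, *Epyc* and *Gata3* were lower in HCs of both organs, and *Sox2* and *Lfng* were higher in both. *Hes5* was lower in cochlear HCs and at the floor in both vestibular libraries. The mesenchyme sum was higher in ENSCs than in HCs of the vestibular organs too (5226.75 and 463), while *Col1a1*, *Col3a1* and *Tbx18* were highest in vestibular ENSCs. The part of these cells was not tested.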

How the results depend on the processing

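Of 112 recomputed connexin log2 ratios, 110 kept their side of 3-fold and none changed sign, although the *Gjc1* ratio between HC libraries was 0 with a floor of 100, above both signals, and the order of the levels per kilobase was kept with the other gene length. The *Gjb6* ratio of cochlear to vestibular ENSCs (1.67) went under 3-fold to 1.57 with 20 added to every signal and to 1.29 with 100 added. For the vestibular minus cochlear difference, 22 of 28 values were kept. That of *Gjb2* (-0.0049) changed sign, to 0.0056 and 0.038 with 20 and 100 added and to 0.071 with ratios centred on the median. That of *Gjc1* (1.74) went under 3-fold, to 1.52 and 1.06 with 20 and 100 added and to 1.07 with a floor of 100. The cause was not tested.

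Counts over all genes are given for cochlear HCs against ENSCs, vestibular HCs against ENSCs, HCs between organs and ENSCs between organs, in that order. The counts 3-fold apart were 2254, 3599, 1192 and 2017. They came to 1087, 1872, 433 and 967 with a floor of 100, to 800, 1402, 278 and 659 with 100 added, to 4342, 6159, 2690 and 4426 at 2-fold, and to 1095, 1816, 439 and 804 at 5-fold. HCs between organs came to 687 with a floor of 50 and 690 with 20 added, and ENSCs between organs to 1338 with 20 added. The other 25 of 44 counts stayed within 1.5 times. Correction for length and GC content moved the vestibular split from 1762 higher and 1837 lower in HCs to 1888 and 1285. Of the 46 pathway genes, 10, 17, 5 and 12 were 3-fold apart. A floor of 50 gave 6, 11 and 3 for the first to the third comparison, a floor of 100 gave 4, 6, 2 and 7, and the correction gave 9 for the vestibular one.

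No paired analysis was possible because each population had 1 library and no test was run, and leaving out a replicate was not possible for the same reason. Low signals are limited by the floor of 20 and the tied ranges, and depth is unknown.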
